A study of Homo sapiens with 7 samples.

Results

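The steady-state transcriptome of T47D/A1-2 cells was described from the deposited RNA-seq table, which lists 1 FPKM value (fragments per kilobase of transcript, scaled to the number of mapped fragments) for each of 26175 genes. All 26175 genes were taken, with no choice by level, and they are every gene that the RNA-seq table of the series holds. T47D is a human breast cancer cell line of luminal type, and A1-2 is a derivative of it that overexpresses rat glucocorticoid receptor and carries a stably integrated luciferase reporter driven by the mouse mammary tumor virus promoter. Cells were grown in DMEM with 10% fetal bovine serum and then kept in 5% charcoal dextran-treated serum, which is depleted of steroid hormones, for at least 24 hours before RNA isolation. No hormone was added and no other condition was measured. The series holds 7 samples from 4 assays, and the RNA-seq samples are 3 replicates, which the authors merged before they computed FPKM. Each gene therefore has a single value, without an error between replicates, and the depth behind it is unknown. The other readout used here is the list of 10391 gene transcription start sites (gene TSSs) that the authors called from Start-seq, an assay of short capped nascent RNA, in replicate 1. A gene TSS was joined to the annotated gene whose transcript starts nearest on the same strand, within 1000 nts.

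Luminal cells line the ducts of the mammary gland and carry keratins 8, 18 and 19, whereas basal (myoepithelial) cells around them carry keratins 5 and 14. The luminal program of breast cancer cells is known to rest on the estrogen receptor and on the transcription factors FOXA1 and GATA3, which act with it at chromatin. Steady-state RNA measured by poly-A selected RNA-seq is the balance of synthesis and decay, and RNAs without a poly-A tail or too short for the library are poorly covered by it.

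Of the 26175 genes, 7888 were listed at 0 (30.1%, exact Clopper-Pearson 95% interval 29.6% to 30.7%) and 12271 had an FPKM of at least 1 (46.9%, 46.3% to 47.5%). These intervals cover the counting of genes in 1 table and not the variation between replicates. The remaining 6016 genes lay above 0 and under 1, and 984 of them were under 0.01. The median of the 18287 genes above 0 was 5.48 FPKM, with quartiles of 0.305 and 22.6. Genes at 10 FPKM or above numbered 7348, genes at 100 or above 920, and genes at 1000 or above 6. Summed FPKM was spread over many genes: the 10 highest genes held 2.69% of the sum of 429368, the 100 highest 13.3%, and 1146 genes held the first 50%. The 5828 highest genes held 90%, and the genes at 1 or above together held 99.7%.

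The table was divided by gene type, using the annotation of the 23416 genes (89.5%) that could be matched to a gene model. Protein-coding genes made up 18881 of the genes and 97.6% of summed FPKM. Of them, 60.4% (interval 59.7% to 61.1%) reached an FPKM of 1 and 17.0% were listed at 0. Their values formed a broad peak with its highest point between 16 and 32 FPKM, which held 2309 genes, and a flat shoulder between 0.0156 and 0.5 FPKM with 483 to 538 genes for each doubling. Long non-coding RNA genes showed no such peak. Of 2233 such genes, 50.2% were listed at 0 and 16.6% (15.1% to 18.2%) reached 1. Among 767 pseudogenes, 21.8% reached 1. Genes of small RNAs were mostly at 0, with 99.3% of 1209 miRNA genes and 87.9% of 306 snoRNA genes listed there. Mature miRNAs and snoRNAs are short and carry no poly-A tail, and an entry at 0 was read here only as "listed at 0".

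**Figure D1:**
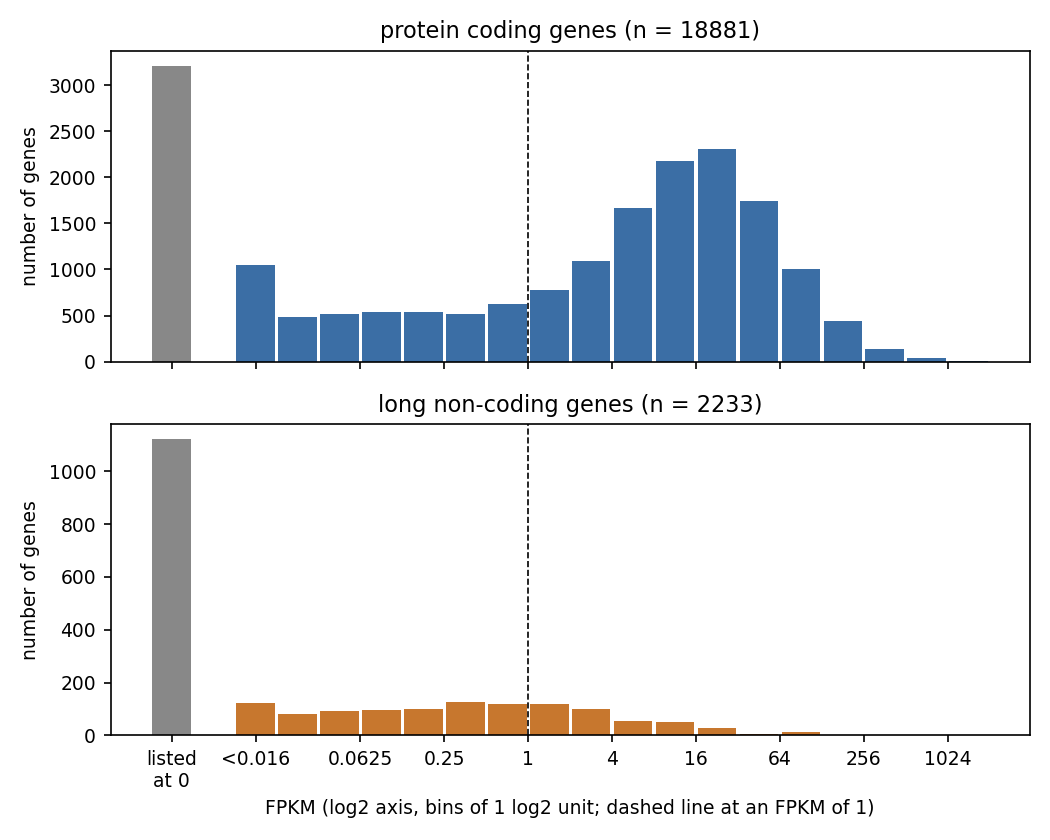
Number of genes (vertical axes) by FPKM on a log2 axis, in bins that each span a doubling, for 18881 protein-coding genes (top) and 2233 long non-coding RNA genes (bottom). The grey bars hold the genes listed at 0 and the lowest colored bars hold all values above 0 and under 0.0156. Coding genes peak between 16 and 32 FPKM, and long non-coding genes have no peak above the dashed line at 1.

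The 25 highest genes were led by keratins, secreted and cytoskeletal proteins and the translation machinery. PIP, which encodes prolactin-induced protein, a secreted product of mammary and other apocrine epithelia, had the highest value of any coding gene at 1194 FPKM. S100A11, a calcium-binding protein, followed at 1165, and KRT8, the type II keratin of simple epithelia, at 1142. RPL8, a protein of the large ribosomal subunit, stood at 1135 and HSPB1, a small heat shock protein, at 1049. These 5 coding genes were the only ones at 1000 or above. Cofilin (CFL1, 964), which severs actin filaments, and keratin 19 (KRT19, 936) came next. Of the 25 genes, 9 encode cytosolic ribosomal proteins, and 22 had a called gene TSS.

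Outside the ribosomal proteins, the 15 highest coding genes had values down to 661 FPKM. The cytoskeleton was represented by ACTB (beta-actin, 878), MYL6 (a myosin light chain, 790) and TUBA1B (an alpha-tubulin, 706). Energy metabolism was represented by the glycolytic enzymes ALDOA (873) and ENO1 (712) and by ATP5B (809), the catalytic subunit of mitochondrial ATP synthase. NACA (734) binds nascent polypeptides at the ribosome, EEF2 (672) moves the ribosome along the mRNA, and HSPA8 (661) is the constitutive HSP70 chaperone. Of the 100 highest genes, 99 were protein coding, 27 belonged to the cytosolic ribosomal protein family as defined here by symbol, 8 belonged to the luminal lists described next, and 96 had a called gene TSS. The family leaves out RPL36AL (559) and FAU (412), which encode ribosomal proteins too. The coding genes among these 100 had short transcripts, with a median longest annotated transcript of 2035 nts against 3845 nts for all coding genes at 1 or above.

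The highest entry of the table was not a coding gene. MIR622, the gene of a miRNA, was listed at 2149 FPKM, which is 0.5% of the summed FPKM, although its hairpin has 96 nts. It lies at chr13:90883436-90883531 (hg19, plus strand), inside KRT18P27, a processed pseudogene of keratin 18. The hairpin aligned to the KRT18 transcript over 93 nts, of which 89 were identical (95.7%), in the sense direction. MIR492, at chr12:95228174-95228289 on the plus strand, lies in the same way inside KRT19P2, a transcribed processed pseudogene of keratin 19. It was listed at 9.35 FPKM, and its hairpin matched KRT19 at 107 of 114 aligned nts (93.9%). KRT18 itself stood at 555 FPKM and KRT19 at 936. Whether reads of the parent keratin mRNAs were counted at the miRNA genes was not tested, so that these values are not given as miRNA levels. No gene TSS was called at either gene. The authors searched near annotated mRNA starts, so that the lack of a call says little about initiation at these miRNA genes. The mature sequences, from RefSeq, are shown because both lie in sequence that aligns to keratin transcripts, with the seed (bases 2 to 8) in capitals and letters given 5' to 3'. The seeds differ.
hsa-miR-622: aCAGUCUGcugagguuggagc
hsa-miR-492: aGGACCUGcgggacaagauucuu

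The luminal identity of the cells was described with 3 lists that hold 52 genes. These lists and those of the other lineages were chosen with earlier results of these data known. Their shares and intervals therefore describe the chosen genes and are no test of identity. Of them, 47 had an FPKM of at least 1 (90.4%, interval 79.0% to 96.8%), beside 46.9% of all genes, and 1 was listed at 0, beside 30.1% of all genes. Nearly all members are protein coding, and among all coding genes the shares were 60.4% at 1 or above and 17.0% at 0. The median luminal gene had 72.4 FPKM, 40 genes reached 10 and 24 reached 100. Gene TSSs were called at 37 of the 47 genes at 1 or above, beside 77.3% of all matched genes at that level, and at none of the other 5. Most of the 47 were above 10 FPKM, where calls were more frequent. They were found at 86.9% of coding genes between 10 and 100 and at 92.6% at 100 or above.

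Luminal transcription factors were present in nearly every case, with 17 of 18 at 1 FPKM or above. XBP1, a factor of the unfolded protein response that is high in estrogen receptor positive tumors, had 461 FPKM. GATA3 had 360, SPDEF, an ETS factor of secretory epithelia, 233, and TRPS1, a GATA-type repressor, 140. ELF5, which directs alveolar development in the gland, had 135 and FOXA1 113. The steroid receptors in this list were lower: the progesterone receptor PGR had 68.5 FPKM and the estrogen receptor ESR1 44.1. KLF5 (3.11) and TBX3 (2.99) were the lowest above 1, and TFAP2B (0.00448) was the member below it, whereas its paralogs TFAP2A (76.3) and TFAP2C (31.5) were well above. A gene TSS was called for 16 of the 18 genes, and PGR was the member above 1 without a call.

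Keratins and surface proteins of luminal cells were at 1 FPKM or above for 18 of 18 genes, with a median of 208. Keratins 8, 19 and 18 led, and KRT7 was lower at 60.7. MUC1, a mucin of the apical surface, had 343 FPKM. The tight junction proteins CLDN4 (294), CLDN3 (186) and CLDN7 (82.8) and the adherens junction protein E-cadherin (CDH1, 230) were all high. The prolactin receptor (PRLR) had 263 FPKM and the membrane proteases ST14 and PRSS8 had 250 and 132. CEACAM6 (5.20) and TSPAN1 (3.51) were the lowest of the named members.

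Secreted and estrogen-linked products varied most among the luminal lists. Of 16 genes, 12 were at 1 or above, and the range ran from a listing at 0 to 1194 FPKM. PIP was followed by AGR2 (613), a disulfide isomerase of secretory cells, CRABP2 (407), which carries retinoic acid, and AZGP1 (149), a secreted glycoprotein. GREB1, a cofactor of the estrogen receptor, had 27.7 FPKM, and the trefoil factors TFF3 and TFF1 had 26.5 and 1.90. Secretoglobins were under 1, with the mammaglobins SCGB2A2 at 0.151 and SCGB2A1 at 0.108, and SCGB1D2 listed at 0. Milk proteins were nearly absent as well. Of 10 genes, MFGE8 (1.29), a milk fat globule protein made by many cells, was at 1 or above, and the casein genes CSN1S1, CSN2 and CSN3 and the alpha-lactalbumin gene LALBA were listed at 0.

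The sequence at the start of 4 luminal genes with high FPKM and a called gene TSS is shown so that the start of these RNAs can be seen beside their levels. Each line gives 60 nts before to 10 nts after the called nucleotide on the strand of the gene (hg19, read from GRCh37, 5' to 3'). The called nucleotide is in capitals, as is the word TATAAA where it begins 40 to 15 nts upstream. The regions are chr7:142829110-142829180 for PIP (plus strand), chr7:16844609-16844679 for AGR2 (minus), chr22:29196517-29196587 for XBP1 (minus) and chr1:156675365-156675435 for CRABP2 (minus).
PIP: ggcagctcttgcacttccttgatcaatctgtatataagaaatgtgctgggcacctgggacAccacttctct
AGR2: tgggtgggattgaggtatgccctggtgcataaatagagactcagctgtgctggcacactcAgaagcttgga
XBP1: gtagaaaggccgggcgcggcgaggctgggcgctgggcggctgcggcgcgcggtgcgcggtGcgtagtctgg
CRABP2: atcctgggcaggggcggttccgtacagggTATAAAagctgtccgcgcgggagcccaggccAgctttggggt

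The call fell on the annotated transcript start at 3 of these genes and 19 nts from it at XBP1. The RNA began with A or G at all of them. The word TATAAA was found at CRABP2, 31 nts upstream, and not in that window at the other 3. Only this exact word was searched for. Variants, such as tatataag in the PIP line and cataaata in the AGR2 line, were not counted. Lack of the word was therefore not read as lack of a TATA element. GC content ranged from 47.9% at PIP to 78.9% at XBP1.

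Lineages other than luminal epithelium were examined with 17 lists that hold 181 genes. Of them, 30 were at 1 FPKM or above (16.6%, interval 11.5% to 22.8%), beside 46.9% of all genes. Listed at 0 were 66 of the 181, beside 30.1% of all genes. Nearly all members are protein coding, and among all coding genes the shares were 60.4% at 1 or above and 17.0% at 0. The median was 0.0117 FPKM, and none reached 100. Gene TSSs were called at 13 of the 30 genes at 1 or above, beside 77.3% of all matched genes at that level. Of the 30 genes, 5 reached 10 FPKM, and between 1 and 10 a call was found at 69.8% of coding genes. Calls were also found at 4 genes under 1. On the log2(FPKM + 0.1) scale, the median of the luminal genes was 6.18 and that of the other lineages was -3.16, a difference of 9.34. This size depends on the pseudocount, since it was 6.18 with a pseudocount of 1 and 11.70 with 0.01. The median over all genes was -0.67. In a bulk sample, a low level in every cell and a higher level in few cells cannot be told apart.

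Among 17 genes of basal and myoepithelial cells, 4 were at 1 or above. These were P-cadherin (CDH3, 9.93), the smooth muscle genes MYLK (3.29) and ACTA2 (3.20), and the EGF receptor (EGFR, 1.28). A gene TSS was called at each of them except CDH3. The defining keratins KRT5 and KRT14 were listed at 0, as was the desmosomal cadherin DSG3, and the basal transcription factor TP63 had 0.517. Mesenchymal genes were at 1 or above in 3 of 19 cases, which were collagen I (COL1A1, 8.82), fibronectin (FN1, 6.99) and TWIST1 (3.74). Of these, TWIST1 had a called gene TSS, and COL1A1 and FN1 had none. The intermediate filament VIM had 0.864 FPKM, and ZEB1, ZEB2 and SNAI2, factors that repress epithelial genes, were listed at 0.

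Genes of blood, vessels and fat were low. The pan-leukocyte gene PTPRC had 0.0208 FPKM, the endothelial cadherin CDH5 was listed at 0, and the adipocyte factor PPARG was listed at 0. At 1 or above were 1 of 17 leukocyte genes, 1 of 10 endothelial genes (ESAM, 2.19), 1 of 11 erythroid genes (HBA1, 1.5) and 2 of 8 adipocyte genes (CFD, 2.50, and ADIPOQ, 1.60). HBA1 and HBA2 (0.699) are near-identical copies, so that the split between them is uncertain. No gene of the pancreas (10 genes), intestine (7) or lung and airway (6) lists reached 1.

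Single members of several other lists stood well above the rest of their list. The neuronal tubulin TUBB3 had 16.3 FPKM, MAP2, a dendritic microtubule protein, 7.66 and the synaptic protein SYT1 6.71, whereas NEFL, NEFM and STMN2 were listed at 0. A gene TSS was called at MAP2 but not at TUBB3 or SYT1. SERPINA1, the alpha-1 antitrypsin gene, had 15.9 FPKM, and the other hepatocyte genes were at 1.49 or under. The cardiac troponin TNNI3 had 22.0 FPKM while MYOD1, MYH7 and DES were listed at 0, and no gene TSS was called at TNNI3. In the prostate list, 3 of 6 genes were at 1 or above (50%, interval 11.8% to 88.2%), near the 46.9% of all genes. The 60.4% of protein-coding genes also lies within this interval. Among the 3 were the membrane protease TMPRSS2 (3.56) and the acid phosphatase ACPP (1.57), and KLK3 was listed at 0. Of the melanocyte genes, the pigment enzyme TYRP1 (9.38) and the melanosome protein PMEL (7.30) were at 1 or above with called gene TSSs, and TYR and MLANA were under 0.01. LIN28A, an RNA-binding protein of pluripotent cells, had 47.5 FPKM and a called gene TSS, the highest value of the 181 genes. SOX2 (15) had no call. The pluripotency factors POU5F1 and NANOG were listed at 0.

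Cancer-testis antigens are germ cell genes that many tumors express. Of 18 such genes, 9 were at 1 or above (50%, interval 26.0% to 74.0%), which is close to the 46.9% of all genes. The 60.4% of protein-coding genes also lies within this interval. The MAGEA genes of the X chromosome led the list. MAGEA3 had 121 FPKM, MAGEA1 91.4, MAGEA6 89.3 and MAGEA12 58.2. The transcripts of MAGEA3 and MAGEA6 were identical at 98.6% of 1645 aligned nts, so that the split between them is uncertain, whereas MAGEA1 was 85.0% identical to MAGEA3 and had a called gene TSS. PRAME, a repressor of retinoic acid signaling, had 41.6 FPKM and a called gene TSS. MAGEA4 (0.672) was under 1, and CTAG1A, CTAG1B and CTAG2, the NY-ESO-1 family, were listed at 0.

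Genes used by most cells were all at 1 or above, beside 46.9% of all genes and 60.4% of protein-coding genes. A gene TSS was called at 77.3% of all matched genes at that level. The share was 86.9% for coding genes between 10 and 100 FPKM and 92.6% at 100 or above. The 19 housekeeping genes ran from TBP (12.6), the TATA-binding protein, to ACTB (878), and 18 had a called gene TSS. The 12 proliferation genes ran from MKI67 (27.8) to PCNA (259), the sliding clamp of DNA replication, and 11 had a call. Of 10 interferon-stimulated genes, 9 were at 1 or above, led by IFI27 (109) and IFI6 (107), and a gene TSS was called at all 10. Of 17 type I interferon genes, none reached 1 and 16 were listed at 0.

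**Figure D2:**
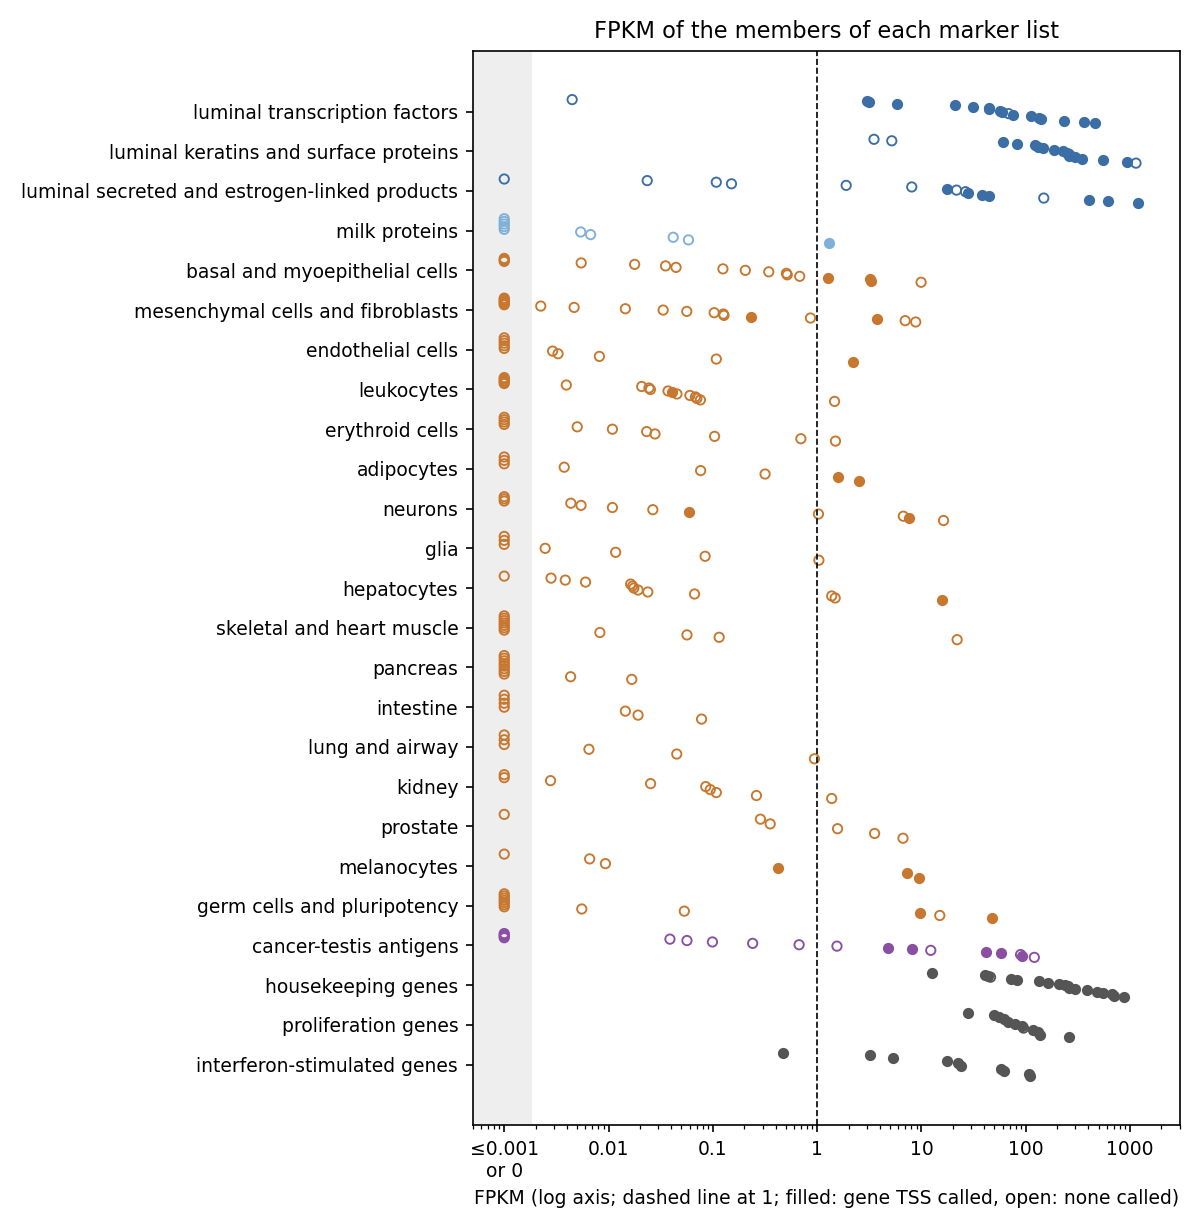
FPKM of the members of each marker list on a log axis, with 1 point for each gene (filled where a gene TSS was called, open where none was). Genes listed at 0 or under 0.001 are drawn in the grey band, and the dashed line marks 1 FPKM. Luminal genes (dark blue) lie mostly between 1 and 1194, the 181 genes of other lineages (orange) lie mostly under 1, and LIN28A at 47.5 is the highest of them.

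Steroid and growth factor receptors were then set side by side, a choice made after their values were seen. Below PGR and ESR1 were the glucocorticoid receptor NR3C1 (5.43 FPKM) and the mineralocorticoid receptor NR3C2 (1.80), and ESR2 had 0.0903. The NR3C1 value belongs to the human gene, and how reads of the rat transgene were counted was not tested. In the ERBB family, ERBB3 had 259 FPKM and ERBB2 124, whereas EGFR had 1.28 and ERBB4 1.07. A gene TSS was called at all of these genes except PGR.

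Gene families defined by their symbols differed widely in the share of members at 1 FPKM or above. That share was 46.9% for all genes and 60.4% for protein-coding genes. Machinery shared by all cells was at the upper end. Of 84 cytosolic ribosomal protein genes, 79 (94%) were at 1 or above, with a median of 182, and together they held 5.05% of summed FPKM. Of 80 mitochondrial ribosomal protein genes, 79 were at 1 or above (median 66.5), as were 38 of 39 complex I subunits (median 136) and 38 of 40 proteasome subunits (median 96.1). RAB GTPases, which direct vesicle traffic, reached 1 in 58 of 73 cases, led by RAB1B (360). ZNF genes, most of which encode zinc finger repressors, combined breadth with low levels: 426 of 537 (79.3%) were at 1 or above, yet the median was 3.45.

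Families of restricted tissues lay at the other end. Of 394 olfactory receptor genes, 364 (92.4%) were listed at 0 and 3 were at 1 or above, of which OR8G5 (4.85) was the highest and OR7E14P and OR7E91P are pseudogenes by name. Of 93 keratin-associated protein genes of hair, 81 were listed at 0 and KRTAP3-1 (9.06) was at 1 or above. No taste receptor (27 genes), defensin (47) or cornified envelope gene (29) reached 1. Within the 55 keratins, 12 were at 1 or above, and KRT80 (87.3) and KRT23 (84.7) followed KRT8, KRT19 and KRT18.

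Clustered developmental genes were uneven. The 39 HOX genes fix position along the body axis. Of them, 11 were at 1 or above (28.2%, interval 15% to 44.9%), beside 46.9% of all genes. In the HOXC cluster, 7 of 9 genes were at 1 or above, with HOXC10 at 128 FPKM, HOXC13 at 23.3 and HOXC11 at 21.0. In HOXB, 3 of 10 reached 1, led by HOXB2 (31.1). HOXA had 1 of 11, HOXA5 at 1.07, and HOXD had 0 of 9, with 6 listed at 0. All 57 clustered protocadherin genes, which encode adhesion proteins with shared 3' exons in the alpha and gamma clusters, were above 0. Of them, 27 were at 1 or above (47.4%, interval 34% to 61%), near the 46.9% of all genes. PCDHGC3 (27.7) was the highest. Reads in shared exons cannot all be assigned to a single protocadherin, so that these values are uncertain.

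**Figure D3:**
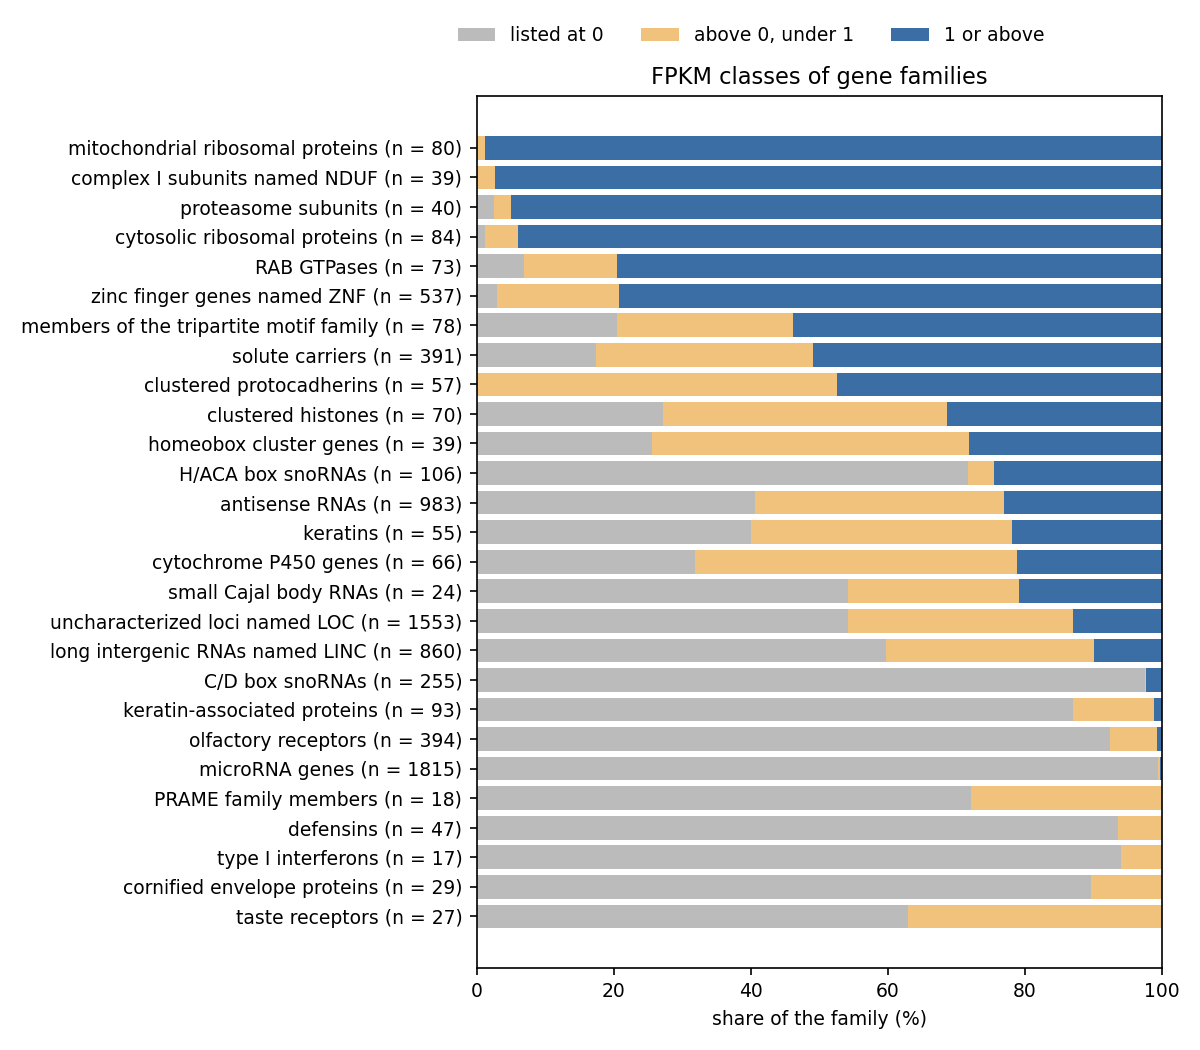
Share of each gene family (horizontal axis, %) listed at 0 (grey), above 0 and under 1 FPKM (yellow) and at 1 or above (blue), with the number of genes in brackets. The families run from taste receptors, with none of 27 genes at 1 or above, to mitochondrial ribosomal proteins, with 79 of 80.

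Not every ribosomal protein gene was high. The named range ran from RPL8 (1135) down to RPL21 (0.0124), and 7 genes were under 10 FPKM. Of these, RPL3L, a muscle paralog (listed at 0), and RPL10L, a testis paralog (0.612), are of restricted tissues. The other 5 were RPL9 (5.52), RPL7 (4.43), RPL36A (0.601), RPS27 (0.425) and RPL21, which encode proteins of the general ribosome, and 4 of the 5 had a called gene TSS. RPL36AL, a paralog of RPL36A that is not among the 84, had 559 FPKM. The annotation lists 133 pseudogenes named after RPL21, 61 after RPL7, 52 after RPL36A, 30 after RPS27 and 20 after RPL9. Across the 84 genes, which share a library, Spearman's rho of FPKM and number of pseudogenes was -0.33. The median was 324 FPKM for the 39 genes with under 10 pseudogenes, 142 for 18 genes with 10 to 19, and 66.2 for 27 genes with 20 or more. The translation factor EEF1A1, with 49 pseudogenes, had 83.0 FPKM, against 672 for EEF2, which has none. Other genes with more pseudogenes than EEF1A1 had higher values: KRT8, with 51, had 1142 FPKM, KRT18, with 68, had 555 and GAPDH, with 65, had 390. The part of multiply mapping or duplicate-removed reads in these values was not tested, and a value near 0 for a gene with many copies was not read as absence of its RNA.

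**Figure D4:**
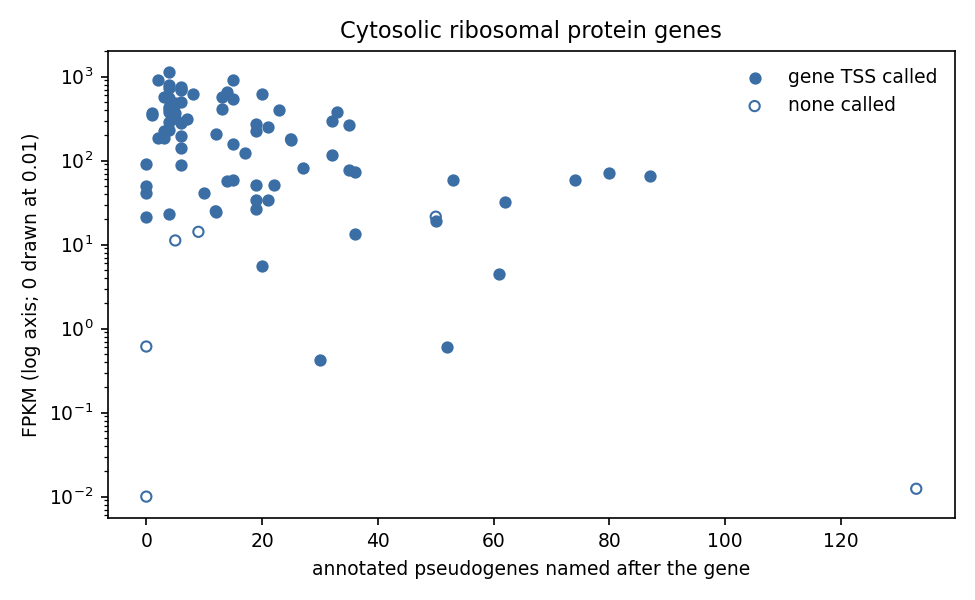
FPKM on a log axis against the number of annotated pseudogenes named after the gene, for 84 cytosolic ribosomal protein genes (filled where a gene TSS was called). Genes with under 10 pseudogenes have a median of 324 FPKM, and RPL21, with 133 pseudogenes, lies at 0.0124.

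Histone genes also stood apart from their start sites. Replication-dependent histone mRNAs are known to end in a stem-loop in place of a poly-A tail. Of 70 clustered histone genes, 22 were at 1 FPKM or above (31.4%, interval 20.9% to 43.6%), beside 46.9% of all genes and 60.4% of protein-coding genes. HIST1H2BK (197), HIST1H2BD (61.1) and HIST1H1C (42.6), a linker histone, led. The part of poly-A selection in these values was not tested. Among the 48 under 1, a gene TSS was called at 28 (58.3%, interval 43.2% to 72.4%). Among all 7403 coding genes under 1, it was called at 608 (8.21%, 7.60% to 8.86%), and the intervals do not overlap.

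Across the whole table, called gene TSSs followed FPKM. The authors searched for gene TSSs near annotated mRNA starts, and 36 of 2233 long non-coding genes had a call, so that shares are given for coding genes. A gene TSS was called at 0.968% of 3202 coding genes listed at 0, at 5.56% of 2427 above 0 and under 0.1, at 24.2% of 1833 between 0.1 and 1, and at 69.8% of 4215 between 1 and 10. It was called at 86.9% of 6271 genes between 10 and 100 and at 92.6% of 907 at 100 or above. Intervals of neighbouring classes did not overlap. Over all matched genes, including non-coding, the share was 77.3% (76.6% to 78.1%) at 1 or above and 0.654% (0.468% to 0.890%) at 0. The 31 coding genes listed at 0 with a call included 6 histone genes. KRT8 and NACA were the highest coding genes without a call.

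Promoter composition changed with FPKM as well. Windows of 250 nts before to 50 after the annotated start were read for 18483 coding genes (99.4%) outside the Y chromosome. Median GC content was 52.3% (interval 51.7% to 52.7%) for genes listed at 0 and 66.7% (66.3% to 67.0%) for genes at 1 or above. An observed to expected CpG ratio of at least 0.6 was found in 27.5% (25.9% to 29.1%) and 88.6% (88.0% to 89.2%) of these windows. Over all 18483 windows the share was 69.5%. Neighbouring genes of a family are not independent of each other, and without olfactory receptors and keratin-associated proteins the share at 0 was 31.4%. The word TATAAA on the strand of the gene, beginning 40 to 15 nts upstream, was found in 3.96% of all windows. Variants of this word were not counted. The share was 9.80% (8.77% to 10.9%) at 0, 1.39% (1.11% to 1.71%) between 10 and 100, and 3.49% (2.38% to 4.91%) at 100 or above. Among the listed genes, a CpG ratio of at least 0.6 was found in 23 of 51 luminal windows (45.1%, 31.1% to 59.7%), in 14 of 30 windows of other-lineage genes at 1 or above (46.7%, 28.3% to 65.7%), in 29.2% of 178 windows of all other-lineage genes, and in 19 of 19 housekeeping windows. The word TATAAA was found at 5 luminal genes, AGR3, CRABP2, ELF3, MUC1 and TFF1 (9.80%, 3.26% to 21.4%), at 28 of 178 other-lineage genes (15.7%, 10.7% to 21.9%) and at 6 of 19 housekeeping genes (31.6%, 12.6% to 56.6%).

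**Figure D5:**
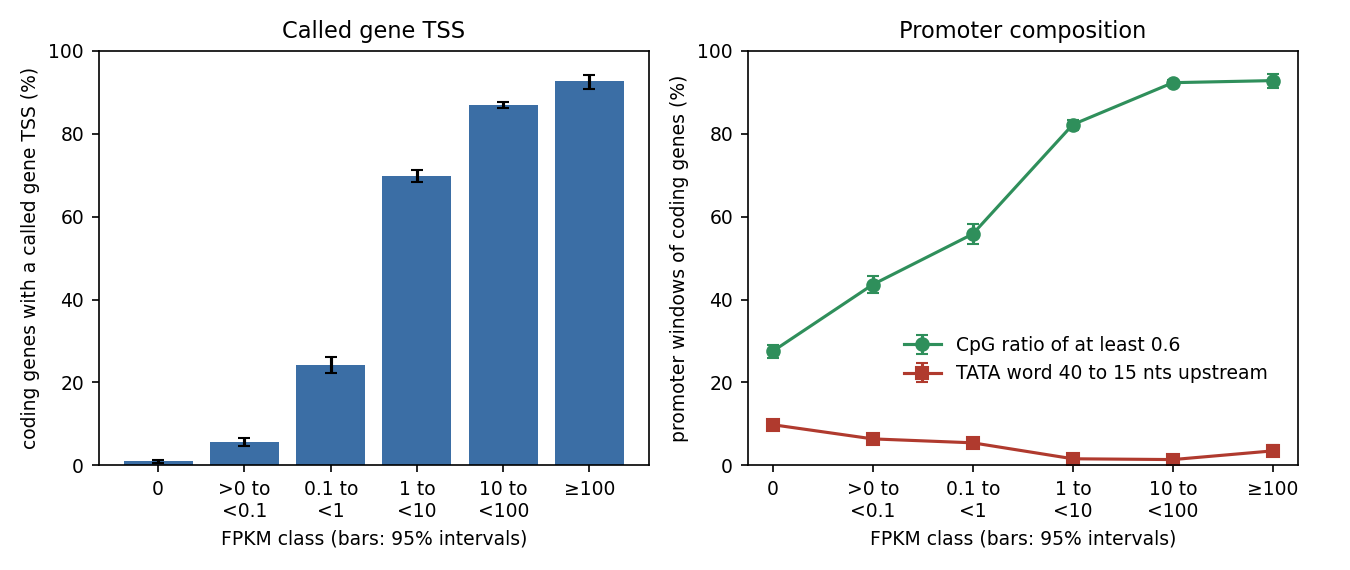
Left, share of coding genes with a called gene TSS (%) by FPKM class; right, share of their promoter windows with a CpG ratio of at least 0.6 (circles) or the word TATAAA 40 to 15 nts upstream (squares). Bars are exact 95% intervals over genes. The share with a gene TSS runs from 0.968% at 0 to 92.6% at 100 FPKM or above.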

How the data were processed

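RNA-seq of 3 replicates of T47D/A1-2 cells was described, and gene TSS calls of Start-seq replicate 1 were set beside it. The authors deposited FPKM values: poly-A enriched, strand-specific reads were filtered by quality, trimmed with cutadapt, aligned with TopHat2 2.0.4, de-duplicated with Picard, merged over replicates and quantified with Cufflinks 2.2.1, and the submitters' processing notes name hg19. Gene TSSs were called by the authors from Start-seq reads trimmed with cutadapt 1.2.1 and aligned with Bowtie 0.12.8; the deposited positions carry no read numbers. The table held 0 columns of other samples, and its 28 symbols that had been turned into dates were kept as rows. Of its genes, 8884 share a locus with another gene, such as KRT8 with KRT18.

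Genes were matched by symbol (22038) or by another name (1378) to GENCODE v44 models lifted to GRCh37, and 2759 had no match. Promoter windows began from the Ensembl canonical transcript. Hairpins and transcripts were aligned locally with Biopython 1.88. Shares have exact Clopper-Pearson intervals at 95%, and medians have order-statistic intervals. Python 3.11.15 with numpy 2.4.6, pandas 2.3.3, scipy 1.17.1 and matplotlib 3.10.9 was used, and the join and the intervals were tested on simulated data. With 1 merged value for each gene no test between samples was possible, and depth and its precision are unknown.

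Named genes were the 25 highest, the 15 highest coding genes outside ribosomal proteins, the highest of each family and members of the lists. Start sequences were read for the 6 highest luminal genes with a call, leaving out chromosome 8, and 4 are shown. Some items are not reported here. The members and lists were chosen with earlier results of these data known. Receptor groups, pseudogene numbers, histone start sites and the removal of host and antisense genes from families were added after values were seen. Genes of the Y chromosome are counted in their lists but not named, and families and chromosomes leave them out. Alternatives were coding genes only, longer transcripts, single symbols, other FPKM limits, other pseudocounts and a closer join. Start-seq replicate 2, MNase-seq, FAIRE-seq and antisense TSS calls were not used here.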

Additional observations from a re-analysis of the deposited data

How the results depend on the processing

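No paired analysis was possible because the table holds 1 merged column, and for the same reason no replicate could be left out. Keeping a single row for each symbol changed none of the 9 values at the precision printed. With coding genes alone, 17.0% of genes were listed at 0, 60.4% were at 1 FPKM or above, the median above 0 was 8.05, a gene TSS was called at 81.1% of genes at 1 or above and at 0.965% of genes at 0, and the log2 difference between luminal and other-lineage genes was 9.25. With longest transcripts of at least 500 nts, the same values were 20.4%, 55.4%, 6.55 and 9.38, and both shares with a gene TSS stayed within their intervals. Counting genes under 0.01 as 0 gave 33.9%. A limit of 0.1 or 5 FPKM in place of 1 gave 57.0% or 35.7% of genes, 67.8% or 84.3% with a gene TSS, and 52 or 14 of 181 other-lineage genes, whereas luminal genes stayed at 49 or 43 of 52. The median of genes at 1 or above was 14.4. A join within 200 nts gave 69.0% with a gene TSS at 1 or above. Pseudocounts of 1 and 0.01 gave log2 differences of 6.18 and 11.70. The number of genes that hold 50% of summed FPKM ran from 1119 to 1213. Each change follows from which genes are counted or from the scale, and luminal genes lay above other lineages in every setting run.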

Other observations

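The long non-coding RNAs with the highest values were mostly snoRNA host transcripts. LRRC75A-AS1 had 218 FPKM, C6orf48 146, SNHG8 132, SNHG5 128, ZFAS1 121, SNHG6 110 and SNHG9 99.4. Others of the 15 highest lie beside breast lineage genes or are known from breast tumors: ST8SIA6-AS1 had 123 FPKM, GATA3-AS1, which is divergent from GATA3, had 98.4 and DSCAM-AS1 had 95.2. LINC00657, also named NORAD, had 120. Of snoRNAs counted on their own, SNORD76, which lies in an intron of the GAS5 host gene, was listed at 157 FPKM and SNORD83B at 42.6, while 249 of 255 C/D box snoRNAs were listed at 0. GAS5 had 77.7.

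Runs of neighbouring coding genes at 0 and at 1 or above were read along the chromosomes. The run lengths that a random gene order would give were not computed. The longest run of neighbouring coding genes listed at 0 had 37 genes on chromosome 11, from OR4A15 to OR5M8, of which 36 are olfactory receptors. A run of 33 keratin-associated protein genes lay on chromosome 21 and a run of 30 olfactory receptor genes on chromosome 1. The longest run at 1 or above had 29 genes on chromosome 16, from ZNF768 to PRSS8, with a median of 25.1 FPKM. The next had 25 genes on chromosome 19, from ZNF776 to ZNF584, with a median of 2.95. The share of coding genes at 1 or above was lowest on the X chromosome (49.9% of 757, interval 46.3% to 53.6%) and highest on chromosome 16 (70.9% of 781, 67.6% to 74.1%). Chromosome 21 had 54.5% with and 71.0% without its olfactory receptor and keratin-associated protein genes, and chromosome 11 had 53.5% and 62.0%. The copy number of each chromosome in these cells was not analysed here.

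No gene of the mitochondrial chromosome is in the table. Of 295 genes placed on alternative or unplaced sequences, 228 were on chromosome 6 haplotypes and 128 were at 1 or above. TUBB (441 FPKM), RPS18 (284) and HLA-B (149) were placed on such a haplotype.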
